A study of Mus musculus with 12 samples.

Results

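The response described here is that of wild-type (WT) mouse colonic organoids to 3 days without Wnt-3A. Organoids are epithelial structures that grow from colon crypts in a gel matrix, here Matrigel, and all libraries carry the strain background C57BL/6. In the stem cell condition the medium (WENR) held Wnt-3A with R-spondin-1, Noggin and EGF, and in the differentiated condition organoids grown in it were kept for 3 days in medium without Wnt-3A (ENR). Total RNA of 3 stem and 3 differentiated WT libraries was compared. Another 6 libraries, 3 in each condition, came from organoids labelled as deficient in AhR, the aryl hydrocarbon receptor (KO, allele not given in the labels). They entered the shared estimate of the spread, a note on AhR pathway genes and 1 comparison at the end. The last 3 factors were in both media, so the differentiated organoids were without Wnt-3A and not without all Wnt-promoting factors. A gene was taken into the comparison when its normalized count was at least 10 in at least 3 of the 6 WT libraries, which kept 14132 of the 48795 genes of the table, 12774 of them protein coding. A further 9409 genes had WT reads below that filter. Just inside it lay Apoe with a third-highest count of 10.4 and just outside it Grm4 with 9.97. Because the filter asks for 3 of 6 libraries, 391 genes passed through the differentiated libraries alone and 258 through the stem libraries alone, and these had to differ between the groups (389 of the 391 were called higher and 248 of the 258 lower). Values of such genes are a description, and where a gene list holds any, the counts over its other members are given too. The median of a list covers all its tested members, such genes included, and is then a description as well.

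In the colon, stem cells at the crypt base divide under Wnt signals, which stabilise beta-catenin and switch on target genes through TCF/LEF transcription factors. Daughter cells leave the base, divide for a short time and mature into absorptive colonocytes, mucus-producing goblet cells, hormone-producing enteroendocrine cells and chemosensory tuft cells, and colonocytes at the surface carry out salt, water and short-chain fatty acid uptake. Bulk RNA measures all these cells together, so fewer cells of a type and less RNA per cell cannot be told apart in any value below.

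Gene reads numbered 33.1 to 49.4 M per WT stem library and 25.1 to 75.7 M per WT differentiated library. Levels are normalized counts, which compare a gene between libraries and not genes with each other, and a log2 change is the differentiated minus the stem mean of log2(normalized count + 1), given ± SE from a limma fit. Whether replicates were independent animals or cultures is not labelled, and p-values therefore cover the spread between these libraries alone, which may be technical. All 7 epithelial markers were present at high levels in all 6 WT libraries, for example Epcam at 36552, 51986 and 42520.0 in the stem and 117693, 107465 and 108765 in the differentiated libraries. WT stem library 1 differed from the others of its group. Of 13 fibroblast markers, Vim had 13196, 9.97 and 8.08 normalized counts in the 3 stem libraries, Col1a1 4788, 5.54 and 5.77, Col1a2 1659.7, 1.11 and 0 and Fbn1 1247, 1.11 and 1.15. The differentiated libraries had at most 28.2 of Vim and 18.3 of Col1a1. Dcn, Lum and Thy1, also fibroblast genes, had no reads in any of the 6, and Fn1, which was high in all of them, made up most of the summed level of the list (52623, 27149 and 25518 in the stem libraries, 120628 to 155261 in the differentiated ones). Smooth muscle markers summed to 545 normalized counts in WT stem library 1 and at most 11.4 in the other 5 WT libraries, through Acta2 and Tagln, and enteric glia and neuron markers to 805 and at most 34.6, through Tubb3. Of 4 Y-linked genes, Ddx3y and Eif2s3y had reads in WT stem library 1 alone (27.7 and 21.2), Uty had 9.78 there and at most 4.78 in the others, and Kdm5d had reads in all 6 and was lowest in it (13 against 15 to 29.5). The counts of called genes and those of the gene lists were therefore repeated without this library. The strand use of the counting is not stated, so reads cannot be told apart from those of a gene on the opposite strand for Ankrd37, Atp6v1c2, Ccn2, Ccna2, Ccnd1, Ccne2, Csf1r, Dll4, Dnah8, E2f8, Erbb2, Ereg, Fn1, Gapdh, Gnl3, Hif1a, Jun, Junb, Kcnq1, Muc4, Mxd3, Notch1, Pdzk1, Prom1, Tcf7l1 and Vil1, and Ugt1a6a shares exons with other Ugt1a genes.

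**Figure D1:**
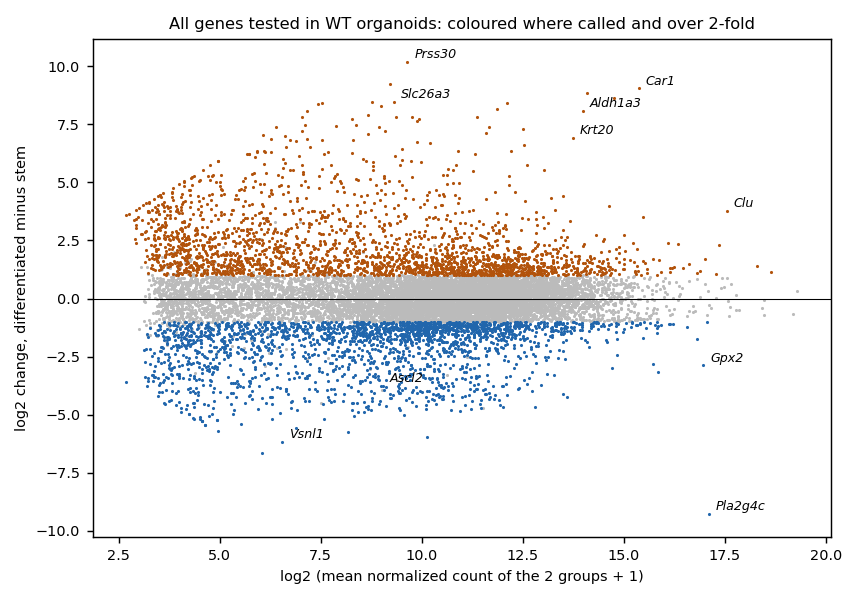
Log2 change (y axis, differentiated minus stem) of each of the 14132 genes tested against its mean level (x axis, log2 of the mean normalized count of both WT groups + 1), with genes called and over 2-fold higher in orange and lower in blue. Rises over 32-fold (135) outnumber such falls (24), with genes that passed the filter through 1 group alone included. Pla2g4c at -9.27 lies below all other genes.

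Withdrawal of Wnt-3A was followed by a change in most of the transcriptome. Of the 14132 genes, 10380 had an adjusted p under 0.05 after Benjamini-Hochberg correction and were called (73.5%), 5255 higher (37.2%) and 5125 lower (36.3%) in differentiated organoids. Many changes were small, with a median size of 0.64 on the log2 scale and a median of all changes of 0.02. With the added demand of a change over 2-fold, 4458 genes (31.5%) remained, 2298 higher (16.3%) and 2160 lower (15.3%), and these shares are the background for the gene groups below. Large rises outnumbered large falls, since 486 genes were over 8-fold higher and 409 over 8-fold lower, and 135 against 24 went over 32-fold. These tallies were taken over all genes tested. They include any of the 391 genes that passed the filter through the differentiated libraries alone and of the 258 through the stem libraries alone. The excess of rises is thus a description. The 3 and 3 libraries did not overlap for 76.4% of all genes tested. Without WT stem library 1, 10466 genes were called, 9885 of the 10380 kept their call and direction, and 0 were called in the opposite direction. The condition was the main axis between these 6 libraries, with 85.4% of the variance of the log2 values on the first principal component, while the next component (7.52%) set WT stem library 1 apart from the rest.

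The stem cell and Wnt programme was lower, although not all of its members fell. Of 15 tested intestinal stem cell markers 9 fell and 4 rose (6 and 2 over 2-fold), with a median log2 change of -0.93 against 0.02 for all genes. Lgr5 (ENSMUSG00000020140, chromosome 10, 115450311 to 115587780, GRCm38), the R-spondin receptor of crypt base stem cells, had 2530.3, 7489.7 and 6013 normalized counts in the stem libraries and 1832, 1939.7 and 1833 in the differentiated ones. The groups did not overlap, but stem library 1 lay far closer to the differentiated libraries than the other two (log2 change -1.38 ± 0.32, limma adjusted p = 0.00209, and -1.84 without that library). Ascl2 (ENSMUSG00000009248, chromosome 7, 142966829 to 142969264), a transcription factor of stem cell identity, went from 859, 1186 and 881 to 80.1, 58.5 and 75, and all 3 stem libraries were over 10 times the highest differentiated library (log2 change -3.75 ± 0.18, limma adjusted p = 8.57e-09). Tnfrsf19, a TNF receptor family member of stem cells, fell from 369.8 to 9.16 (log2 change -5.20 ± 0.30), Smoc2, a matricellular protein gene, from 319 to 62.7 (log2 change -2.29 ± 0.36) and Cdca7 from 6209.9 to 1783 (log2 change -1.80 ± 0.10). Olfm4, a stem cell marker of the small intestine and human colon, was near the floor with at most 4.43 normalized counts in any WT library. Prom1, a membrane glycoprotein gene (log2 change 1.47 ± 0.10), and Mex3a, an RNA-binding protein gene (log2 change 1.71 ± 0.23), rose. The list as a whole took a larger share of the counts in differentiated (0.38% ± 0.00861, SD, n = 3) than in stem libraries (0.272% ± 0.0325), and Prom1 had the highest count of its members after withdrawal.

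Wnt feedback genes, which are switched on by the pathway and mostly restrain it, fell in the main. Of 17 Wnt feedback and target genes 12 fell, 9 of them over 2-fold, and 2 rose (median -1.20). Apcdd1, Lef1 and Nkd1 passed the filter through the stem libraries alone, and of the other 14 genes 9 fell and 2 rose. Axin2 (ENSMUSG00000000142, chromosome 11, 108920349 to 108950783), a scaffold of the beta-catenin destruction complex, had 5469.8, 7705 and 7161 in stem and 2273, 2071 and 1972 in differentiated libraries (log2 change -1.67 ± 0.13, limma adjusted p = 4.77e-07). The secreted Wnt deacylase gene Notum fell from 414 to 56 (log2 change -2.89 ± 0.27), the transcription factor gene Lef1 from 50.8 to 4.02 (log2 change -3.17 ± 0.49) and Nkd1, an inhibitor of Dishevelled, from 26.9 to 2.96 (log2 change -2.91 ± 0.46). The ubiquitin ligase genes Znrf3 and Rnf43, which remove Frizzled receptors, fell by different amounts (log2 -1.20 and -0.40). Several targets that other signals also control moved little. Myc fell from 13798 to 8680.0 (log2 change -0.66 ± 0.12), Ccnd1 was not called (log2 change -0.45 ± 0.19, limma adjusted p = 0.0503), and Sox9 had the same mean of 4265 in both groups (log2 change -0.00 ± 0.12, limma adjusted p = 0.98). Prox1 and Tcf7l1 rose (log2 1.26 and 1.62).

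Among Wnt ligands and receptors the changes went both ways, with 4 rises and 6 falls among 13 members tested. Of all genes tested, 37.2% were called higher and 36.3% lower. The receptor genes Fzd5 (2784 to 7049, log2 change 1.34 ± 0.11) and Lgr4 (4494 to 11147, log2 change 1.31 ± 0.13) rose, and Fzd9 (87.6 to 6.42, log2 change -3.80 ± 0.42) and the ligand gene Wnt4 (227 to 72.5, log2 change -1.57 ± 0.37) fell. Wnt3 and Wnt3a, the ligands, had at most 3.26 and 1.63 normalized counts in any WT library. Sfrp1, a secreted Wnt inhibitor, was among the 12 largest falls named here and went from 468, 131 and 100.4 to 2.29, 1.19 and 6.81, with the highest stem value in library 1 (log2 change -5.59 ± 0.56, and -4.91 without it). Eph receptors and ephrins guide cells along the crypt axis, the EphB receptors being Wnt targets of the crypt base and the ephrin-B ligands marking differentiated cells. Of 15 tested, 7 rose and 2 fell. The ligand gene Efnb2 rose from 4102 to 11718 (log2 change 1.51 ± 0.06) and Ephb6 from 204 to 2285 (log2 change 3.48 ± 0.13), Efna3 fell from 2803 to 1153 (log2 change -1.27 ± 0.12), and Ephb2 had 15646, 23394 and 22620.1 and 26147, 25141 and 23184 in the 2 groups, which overlapped (log2 change 0.29 ± 0.13, limma adjusted p = 0.0559).

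**Figure D2:**
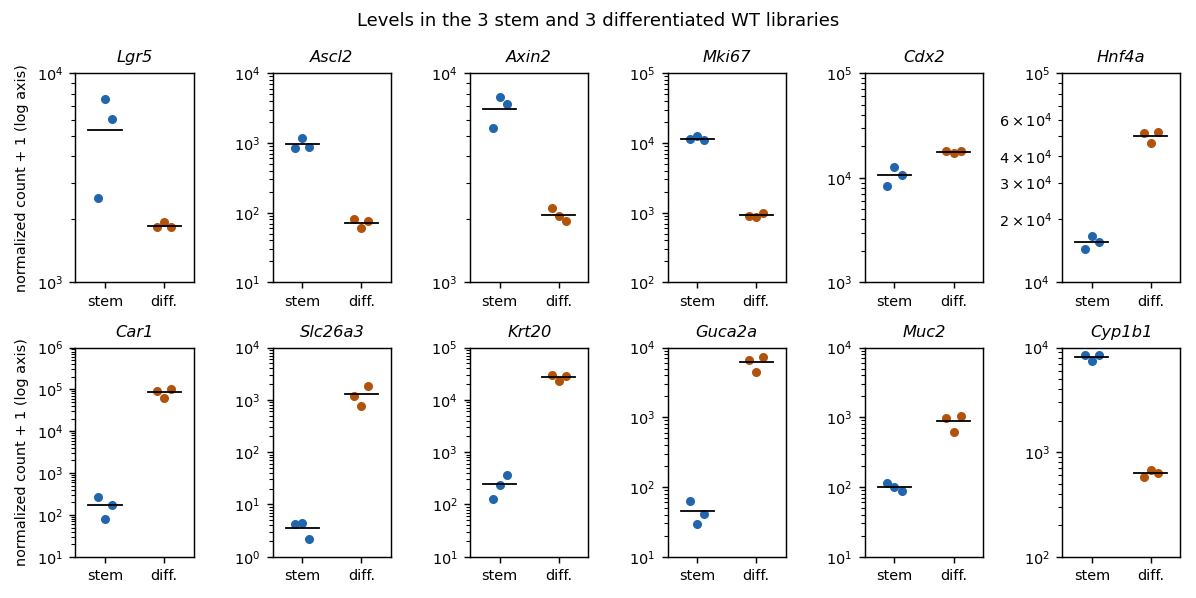
Normalized counts + 1 (log axes, with a range of their own in each panel) of 12 genes in the 3 stem (blue) and 3 differentiated (orange) WT libraries, with the group mean as a bar. Lgr5, Ascl2, Axin2, Mki67 and Cyp1b1 are lower and Cdx2, Hnf4a, Car1, Slc26a3, Krt20, Guca2a and Muc2 higher after withdrawal, and the lowest stem value of Lgr5, 2530.3, belongs to stem library 1.

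Cell division genes fell uniformly. All 31 tested members of the mitosis list fell over 2-fold (median -4.12, range -4.81 to -1.93), as did 34 of the 37 DNA replication genes, the other 3 of which fell by less (median -2.82), against 15.3% of all genes. Mitosis genes took 0.326% ± 0.0319 (SD, n = 3) of the counts in stem and 0.0203% ± 0.000521 in differentiated libraries, and DNA replication genes 0.373% ± 0.0669 and 0.0608% ± 0.00183. Neither share overlapped between the groups, and the exact two-sided permutation p of 0.1 is the smallest that 3 against 3 libraries allow. Mki67 (ENSMUSG00000031004, chromosome 7, 135689784 to 135716361), the proliferation antigen, had 11217, 12416 and 10923 and then 884, 868 and 984 (log2 change -3.66 ± 0.24, limma adjusted p = 8.36e-08). The kinetochore kinase gene Bub1 fell from 3244 to 115 (log2 change -4.81 ± 0.12), and the cyclin genes Ccnb2 and Ccna2 from 5439.9 to 207 (log2 change -4.71 ± 0.17) and 13697 to 544 (log2 change -4.66 ± 0.18). Foxm1, which encodes the transcription factor of many mitotic genes, fell from 4082 to 224 (log2 change -4.17 ± 0.12). Pimreg and Ska1, a mitotic regulator and a spindle and kinetochore protein gene outside the list, were among the 12 largest falls (log2 -5.03 and -5.04). Rrm2, the regulated subunit of ribonucleotide reductase, had 11453, 7003 and 6717 and 485, 480.1 and 416 (log2 change -4.14 ± 0.17), and Prim1, the primase subunit gene, fell from 1792 to 105 (log2 change -4.07 ± 0.12). Stem library 1 was the highest of the stem libraries for 36 of the 37 replication genes and 24 of the 31 mitosis genes, so it lay away from the differentiated libraries here. Without it the medians were -2.68 and -3.98, with 31 mitosis and 34 replication genes over 2-fold lower.

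Many mitotic promoters carry a CHR element (letters TTTGAA, bound by the DREAM complex and its activating counterpart) and CCAAT boxes, and these promoters are shown because their genes moved together. RefSeq promoter windows of GRCm38.p6, from 250 bases before to 50 after the start, were held for 26 of the 31 mitosis genes (27 windows). TTTGAA, read on both strands, lay in 74.1% of those windows against 17.9% of all 32851 windows, and CCAAT in 74.1% against 37.4%. CCAAT was not particular to mitosis genes. In the windows of immediate early and heat shock genes it lay in 69.2% and TTTGAA in 7.69%. The 250 bases before the start are given for 3 mitosis genes, 5′ to 3′ on the gene's strand. They had the largest falls of those that held TTTGAA there, with the genes of a single chromosome left out of the choice. The CHR and CCAAT letters, as written or as reverse complement, are in capitals.
Ccnb2 (chr9:70421555-70421804, minus strand): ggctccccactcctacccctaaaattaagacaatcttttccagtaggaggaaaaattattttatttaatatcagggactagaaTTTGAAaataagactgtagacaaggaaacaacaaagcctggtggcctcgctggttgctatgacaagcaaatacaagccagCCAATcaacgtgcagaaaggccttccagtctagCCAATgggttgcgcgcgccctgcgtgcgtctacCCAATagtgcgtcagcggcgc
Ube2c (chr2:164769679-164769928, plus strand): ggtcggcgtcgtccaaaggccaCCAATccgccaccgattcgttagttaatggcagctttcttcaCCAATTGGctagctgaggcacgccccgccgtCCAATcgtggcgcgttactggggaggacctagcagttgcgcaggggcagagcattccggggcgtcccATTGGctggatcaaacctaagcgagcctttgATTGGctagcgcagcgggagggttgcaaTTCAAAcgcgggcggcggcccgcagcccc
Espl1 (chr15:102296043-102296292, plus strand): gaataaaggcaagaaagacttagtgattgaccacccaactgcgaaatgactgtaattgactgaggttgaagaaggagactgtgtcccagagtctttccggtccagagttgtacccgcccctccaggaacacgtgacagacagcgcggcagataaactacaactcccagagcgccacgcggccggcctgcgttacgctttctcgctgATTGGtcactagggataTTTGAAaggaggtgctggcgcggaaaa
In the Espl1 promoter the run TTTGAA stood at -27 to -22 from the start and in Ube2c its reverse complement at -29 to -24, while in Ccnb2 it lay further away at -167 to -162. Ube2c, the ubiquitin-conjugating enzyme of the anaphase-promoting complex, fell from 7349 to 360.4 (log2 change -4.35 ± 0.14) and Espl1, separase, from 2344 to 114 (log2 change -4.33 ± 0.17). For the Wnt feedback list 10 of 17 genes had a window, under 80%, so no share is given. Sp5, a Wnt-induced transcription factor gene that fell from 1124 to 339 (log2 change -1.72 ± 0.22), was the member with the TCF/LEF letters ATCAAAG before its start, here as the reverse complement CTTTGAT in capitals at -104 to -98.
Sp5 (chr2:70474673-70474922, plus strand): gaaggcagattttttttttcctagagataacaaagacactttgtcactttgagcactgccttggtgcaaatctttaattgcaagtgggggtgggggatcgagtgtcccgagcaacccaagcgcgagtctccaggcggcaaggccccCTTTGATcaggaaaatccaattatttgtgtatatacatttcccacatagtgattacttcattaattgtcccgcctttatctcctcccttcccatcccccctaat
These letters occur in 3.73% of all windows. A match of letters is a description of the sequence and not evidence of binding in these organoids.

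G1 regulators and cell cycle inhibitors went both ways, in a comparison where 36.3% of all genes tested were called lower and 37.2% higher. Of 23 tested, 12 fell and 5 rose, with E2f8 (2558 to 147, log2 change -4.11 ± 0.17), E2f7 (-3.47) and E2f1 (-3.12), transcription factors of the replication phase, and the cyclin gene Ccne2 (1025 to 84.9, log2 change -3.53 ± 0.24) among those that fell. The 5 that rose all encode Cdk inhibitors, namely Cdkn2b (2771 to 10919, log2 change 2.03 ± 0.19), Cdkn1c, Cdkn2a, Cdkn1a and Cdkn1b (log2 1.15, 1.13, 0.85 and 0.82). Other inhibitor genes went down, Cdkn2c from 735 to 69.8 (log2 change -3.36 ± 0.19) and Cdkn2d from 855 to 368 (log2 change -1.21 ± 0.24). In the network of Myc, its partner Max and the antagonistic Mxd proteins, 9 of 13 members rose and 2 fell. Mxd1 (8584 to 28321, log2 change 1.85 ± 0.30) and Mxd4 (1609 to 5952, log2 change 1.89 ± 0.16), repressors at Myc sites, rose. Mycn rose from 86.4, 55.4 and 34.6 to 613, 588 and 407 (log2 change 3.24 ± 0.34), and Mxd3 fell from 359.9 to 15.6 (log2 change -4.55 ± 0.33).

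Genes for making ribosomes and for respiration fell, by less than the division genes. All 20 ribosome biogenesis genes fell, 15 of them over 2-fold (median -1.37), among them Gnl3, nucleostemin (2498 to 672, log2 change -1.88 ± 0.13), Fbl, fibrillarin (10285 to 2874, log2 change -1.83 ± 0.12), and Polr1b, a subunit of RNA polymerase I (3345 to 993, log2 change -1.71 ± 0.17). Of 25 cytosolic ribosomal protein genes 24 fell and 14 fell over 2-fold (median -1.01), with Rps2 falling most, from 176650.0 to 53279.9 (log2 change -1.73 ± 0.07). Their summed share was 2.98, 2.95 and 3.04% in the stem and 1.4, 1.39 and 1.35% in the differentiated libraries. Ribosomal protein genes have many pseudogene copies, so single members are uncertain. Of 28 nuclear-encoded respiratory chain genes 26 fell, 3 of them over 2-fold (median -0.67), for example Ndufa4 (5112 to 1983, log2 change -1.35 ± 0.11) and Cyc1, cytochrome c1 (16545 to 7198, log2 change -1.20 ± 0.06). The 13 mitochondrially encoded protein genes went the other way, with 9 higher and 0 lower (median 0.64). mt-Cytb had 106066, 60597 and 63513 and 126715, 126017 and 120228 (log2 change 0.74 ± 0.19), and mt-Co2 lost its call without WT stem library 1. Several mitochondrial genes overlap or abut each other, which the counting may not separate.

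**Figure D3:**
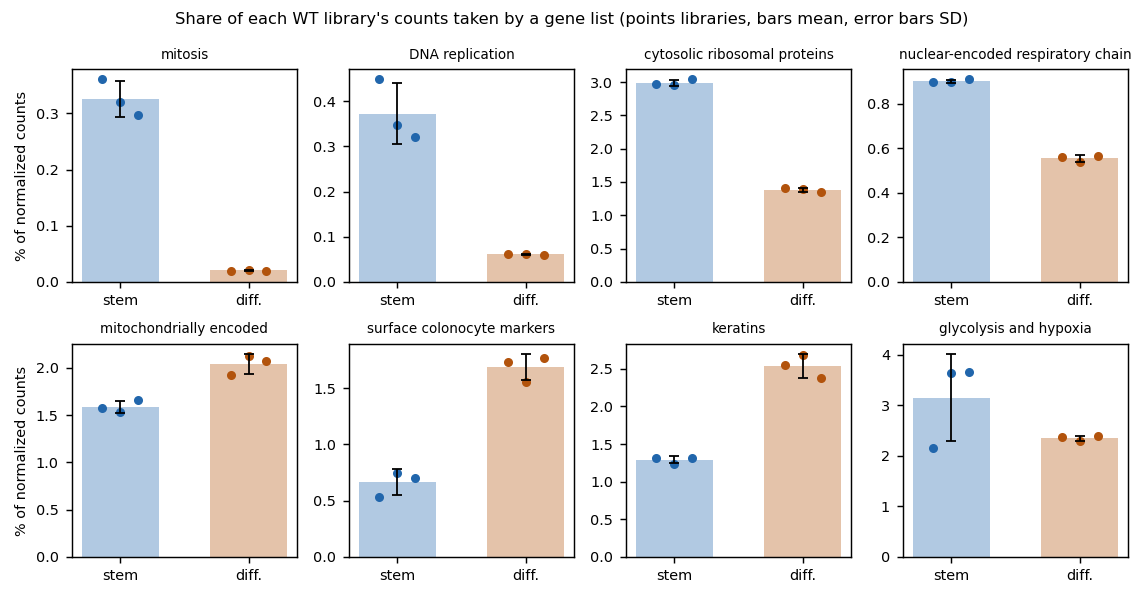
Percentage of each WT library's normalized counts taken by 8 gene lists (y axis, each panel starting at 0), with libraries as points, group means as bars and SD as error bars (n = 3). Ribosomal protein, respiratory chain, mitosis and replication genes take less and surface colonocyte and keratin genes more after withdrawal, while for glycolysis and hypoxia stem library 1 lies with the differentiated libraries.

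Amino acid synthesis genes fell as well. In the list of amino acid and unfolded protein stress 10 of 16 fell, all over 2-fold, and 4 rose (median -2.12). Mthfd2, a mitochondrial folate enzyme, had 4702, 7217 and 7094 and 337, 343 and 304 (log2 change -4.24 ± 0.21). The serine synthesis genes Psat1 (21924 to 1259, log2 change -4.12 ± 0.10) and Phgdh (14745 to 1108, log2 change -3.73 ± 0.10), the asparagine synthetase gene Asns (log2 -2.65), and Atf4, which encodes the transcription factor of this response (18261 to 4773, log2 change -1.87 ± 0.28), fell too. The pseudokinase gene Trib3, one of its targets, had 1048, 7978 and 8336 and 288, 289 and 254 (log2 change -3.89 ± 0.70, and -4.88 without WT stem library 1, which was the lowest stem library). The 4 that rose were Sesn2, Dnajb9, Ddit4 and Xbp1 (log2 0.92, 0.91, 0.78 and 0.44), the last of which encodes the transcription factor of secretory cells.

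Genes of surface colonocytes were among the largest rises. Of 23 such markers tested, 21 rose and 0 fell, all 21 over 2-fold, against 16.3% of all genes (median 4.96). Of the 23, 4 passed the filter through the differentiated libraries alone, Aqp8, Saa1 and Slc26a3 among them, and of the other 19 markers 17 rose. The median covers all 23 markers. Car1 (ENSMUSG00000027556, chromosome 3, 14766216 to 14808368), carbonic anhydrase 1, had 266, 78.7 and 175 normalized counts in the stem and 90678, 60548 and 102119 in the differentiated libraries (log2 change 9.05 ± 0.45, limma adjusted p = 1.22e-08). Slc26a3 (ENSMUSG00000001225, chromosome 12, 31390871 to 31473917), the chloride and bicarbonate exchanger of the colonic surface, had 3.26, 3.32 and 1.15 and 1178, 776 and 1863, the stem values coming from 6 reads in all (log2 change 8.45 ± 0.66). The lowest differentiated library of Slc26a3, library 2, was far above every stem library. Clca4a, a member of the chloride channel accessory family, rose from 140.5 to 55508 (log2 change 8.64 ± 0.35), the keratin gene Krt20 from 243 to 27100.0 (log2 change 6.91 ± 0.44) and Guca2a, guanylin, a peptide that controls fluid secretion, from 43.7 to 6169 (log2 change 7.14 ± 0.42). Aqp8, the water channel of surface colonocytes, had no reads in the stem libraries and 225, 115 and 447 in the differentiated ones, at least 67.4-fold higher at a floor of 3 reads per library. The 2 markers that were not called were Ceacam1, high in both groups (214541 to 236295, log2 change 0.15 ± 0.13, limma adjusted p = 0.291), and Car4, low in both (19.3 to 37.8, log2 change 0.91 ± 0.67, limma adjusted p = 0.237). The list was not silent in the stem condition, taking 0.662% ± 0.114 of the counts there and 1.69% ± 0.113 after withdrawal, largely through Ceacam1, Lypd8 and Emp1. Counts of Clca4a and Clca4b, and of Cyp2c and Ces2 members, are uncertain where near-identical copies share reads.

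Beyond the list, the 12 largest rises included Prss30, a serine protease gene with 1 read in the stem libraries and 1907, 860.0 and 2026 normalized counts in the differentiated ones, and Acsbg1, an acyl-CoA synthetase gene (6.52, 0 and 0 and 1331, 1159 and 1065, log2 change 9.24 ± 0.67). Dmbt1, a mucosal scavenger protein gene, rose from 77 to 35041 (log2 change 8.86 ± 0.54), and Slc13a1, a sulfate cotransporter gene, from 1.86 to 867 (log2 change 8.45 ± 0.58). Aldh1a3, a retinaldehyde dehydrogenase gene, had 215, 85.3 and 88.9 and 32527, 33039 and 31468 (log2 change 8.09 ± 0.29), its differentiated libraries lying close together. Among the 486 genes over 8-fold higher, differentiated library 2 was the lowest of the 3 for 280 (57.6%), against 33.9% of all genes tested, and lay a median of 0.24 on the log2 scale under the other two. It was the lowest for 18 of the 23 surface colonocyte markers, 21 of the 31 xenobiotic genes and 17 of the 20 brush border genes. Prss30, at 860.0, was lowest in that library too.

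Genes with no read in the WT stem libraries and a mean of at least 50 after withdrawal included Zg16, Ces2a, Aqp8 and Btnl1. Zg16, a lectin-like protein of goblet cells, had 384, 205 and 513 (at least 94.5-fold higher), and Ces2a, a carboxylesterase, 372, 215 and 447 (at least 88.5-fold). Btnl1, a butyrophilin-like protein of gut epithelium, had 198, 123 and 179 (at least 42.9-fold). In the other direction D13Ertd608e had 101, 25.5 and 53.1 in the stem libraries and no reads in the differentiated ones (at least 14.2-fold lower). Floors and bounds of this kind cover counting error alone.

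Transport genes mostly rose. Of 27 genes of ion, water and short-chain fatty acid transport 20 rose, 12 over 2-fold, and 5 fell, 2 over 2-fold (median 0.64). Without Aqp8 and Slc26a3, 18 of 25 rose and 5 fell. The sodium-proton exchanger genes Slc9a2 (295 to 8891, log2 change 4.89 ± 0.16) and Slc9a3 (32 to 462, log2 change 3.76 ± 0.39), the short-chain fatty acid transporter gene Slc5a8 (10.7 to 139, log2 change 3.67 ± 0.41) and Hsd11b2, which protects the mineralocorticoid receptor from glucocorticoids (30.9 to 379, log2 change 3.57 ± 0.35), rose. The potassium channel genes Kcnq1 (log2 -0.93) and Kcne3 (-1.37), which sustain chloride secretion, fell, whereas the chloride channel gene Cftr rose from 2671 to 3769 (log2 change 0.50 ± 0.10). Atp12a, the colonic proton-potassium pump, went from 897, 439 and 686 to 52.6, 33.4 and 88.6 (log2 change -3.56 ± 0.35). Among 9 carbonic anhydrase genes 4 rose and 2 fell, against 37.2% called higher and 36.3% lower among all genes tested. Car12 (log2 change 2.54 ± 0.19) and Car8 (log2 change 2.92 ± 0.24) rose with Car1, and Car2, at 85869, 110057 and 117800.0 in the stem libraries, fell to 46154, 49204 and 52464 (log2 change -1.07 ± 0.12). Car1 and Car2, both cytosolic carbonic anhydrases, thus moved in opposite directions.

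Genes of the brush border, the layer of microvilli on absorptive cells, mostly rose. Of 20 members tested 18 rose, 13 of them over 2-fold, and 2 fell (median 1.52). Of the 20, 3 passed through 1 group alone, and of the other 17 genes 16 rose and 1 fell. Core structural genes rose modestly, Vil1, villin, from 28952 to 69454 (log2 change 1.27 ± 0.08) and Cdhr5, an adhesion protein between microvilli, from 12564 to 47537 (log2 change 1.94 ± 0.23), and the motor gene Myo1a strongly, from 1019, 1146 and 959 to 24266, 18328 and 23620.0 (log2 change 4.40 ± 0.28). Surface enzymes rose most, with Alpi, intestinal alkaline phosphatase, at 3.26, 5.54 and 12.7 and 2153, 1107 and 1888 (log2 change 7.83 ± 0.62), and Mep1a, meprin alpha (111 to 4828, log2 change 5.47 ± 0.39). Anpep, Dpp4, Lct, Treh and Enpep, enzymes typical of small intestine, were below the filter. Pdzk1, a scaffold of apical transporters, went against the list, with 47.3, 32.1 and 68.1 and 0.763, 3.58 and 0 (log2 change -4.58 ± 0.74). Gpr89 overlaps it on the opposite strand.

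Junction, keratin and basement membrane genes rose as well. Of 19 junction genes 13 rose and 4 fell (median 0.79). Claudins, the seal of the tight junction, went both ways, with Cldn23 (378 to 3574, log2 change 3.25 ± 0.15) and Cldn4 (22988 to 68759, log2 change 1.62 ± 0.19) higher and Cldn1 (546 to 33.7, log2 change -3.71 ± 0.48), Cldn8 and Cldn15 (log2 -1.17 and -0.91) lower. Of 9 keratin genes 6 rose and 2 fell. Krt19 (179334 to 469096, log2 change 1.39 ± 0.12) and Krt8 (255795 to 558955, log2 change 1.13 ± 0.09) rose, Krt4 fell from 19620.4 to 6905 (log2 change -1.50 ± 0.19), and keratins together went from 1.29% ± 0.0449 to 2.54% ± 0.155 of all counts (SD, n = 3). Of 18 basement membrane and integrin genes 14 rose and 1 fell (median 0.98). Among laminin chain genes Lama3 rose from 3601, 2975 and 2662 to 50038, 48309 and 45795 (log2 change 3.97 ± 0.12) and Lamb3 from 13195 to 54284 (log2 change 2.04 ± 0.07), with the laminin receptor subunit gene Itgb4 (28691 to 91570.1, log2 change 1.68 ± 0.09) and the hemidesmosome linker gene Dst (793 to 6124, log2 change 2.95 ± 0.17).

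**Figure D4:**
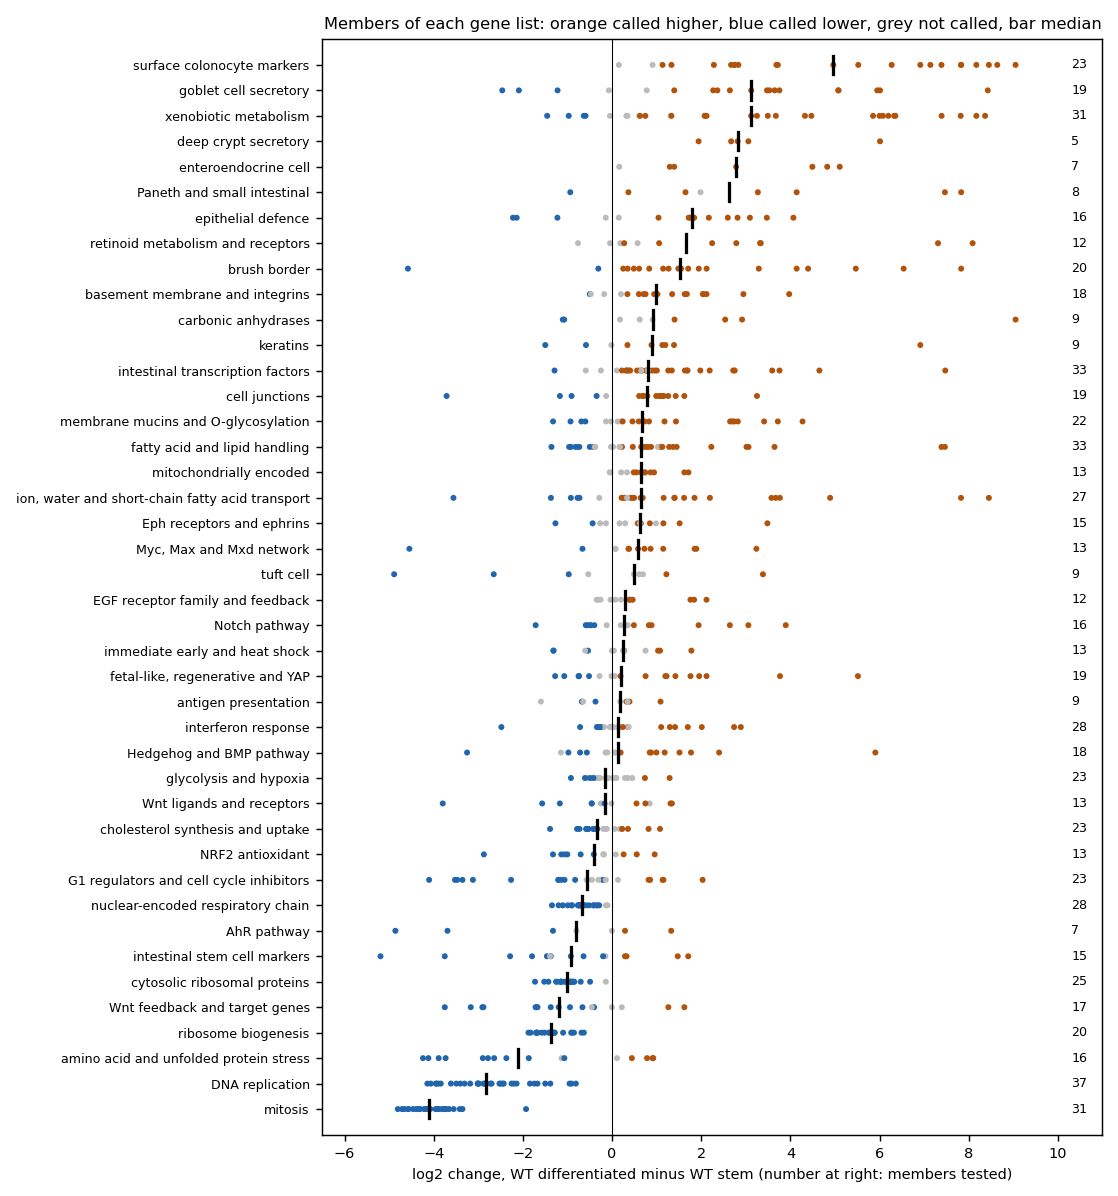
Log2 change (x axis, differentiated minus stem) of every tested member of each gene list with at least 5 members, with called members in orange (higher) or blue (lower), others in grey, the list median as a black bar and the number tested at the right. Mitosis and DNA replication members all lie below 0 and surface colonocyte members all above it, while most other lists hold members on both sides.

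Secretory cell genes rose too, from low levels. Of 19 goblet cell genes 14 rose, all over 2-fold, and 3 fell, all over 2-fold (median 3.12). Of the 19, 7 passed through the differentiated libraries alone (Atoh1, Capn9, Klk1, Spdef, Spink4, Tpsg1 and Zg16), and of the other 12 genes 7 rose and 3 fell. The median covers all 19 genes, so it includes those that passed in this way. Muc2 (ENSMUSG00000025515, chromosome 7, 141690340 to 141754693), the gel-forming mucin, had 112, 97.5 and 85.4 and 975, 619 and 1052 (log2 change 3.12 ± 0.46, limma adjusted p = 7.25e-05). The trefoil factor gene Tff3 rose from 22.1 to 1446 (log2 change 5.95 ± 0.47), Spink4, a secreted peptide, from 3.71 to 185 (log2 change 6.01 ± 0.85), Agr2, a disulfide isomerase, from 110.4 to 1394 (log2 change 3.65 ± 0.33), and the goblet cell transcription factor Spdef from 7.07 to 93.3 (log2 change 3.48 ± 0.35). Atoh1, the master gene of the secretory lineages, stood at 9.78, 6.65 and 3.46 and then 61, 28.7 and 47.7 (log2 change 2.64 ± 0.61). Not all goblet genes followed. Creb3l1 (3038 to 549, log2 change -2.46 ± 0.12), Retnlb, a bactericidal resistin-like protein (115 to 25.9, log2 change -2.09 ± 0.32), and Foxa3 (1856 to 792, log2 change -1.22 ± 0.11) fell, and Clca1 was not called (1367 to 2374, log2 change 0.78 ± 0.44, limma adjusted p = 0.135). Goblet genes remained a small part of the RNA, 0.0242% ± 0.00179 and 0.047% ± 0.0057 of the counts. All 5 genes of deep crypt secretory cells, which support stem cells in the colon, rose (4 of 4 without Spink4), for example Kit (7.78 to 48.2, log2 change 2.82 ± 0.56), with the call of Reg4 lost without WT stem library 1. Membrane mucins, which form the glycocalyx, rose strongly, Muc4 from 331 to 5866 (log2 change 4.27 ± 0.40), Muc3 from 1086 to 13484 (log2 change 3.72 ± 0.61) and Muc13 from 5638 to 34795 (log2 change 2.74 ± 0.43), in a list of mucin and O-glycosylation genes where 14 of 22 rose and 4 fell.

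Enteroendocrine genes were near the floor before withdrawal, and 7 of 24 passed the filter. Gcg and Tph1 passed it through the differentiated libraries alone, and of the other 5 genes 4 rose and 0 fell. The granule protein genes Chga and Chgb had 24.5, 14.4 and 11.5 and 52.2, 22.2 and 13.8 in the stem libraries and 150.3, 89.6 and 116 and 812, 437 and 586 in the differentiated ones (log2 change 2.78 ± 0.42 and log2 change 4.49 ± 0.60). The glucagon gene Gcg had no reads in the stem libraries and 51.1, 10.7 and 36.3 after withdrawal, and Tph1, the enzyme of serotonin synthesis, had 2 reads before and 60.3, 35.8 and 59.1 after. Neurog3, Neurod1, Pyy and Cck stayed below the filter. Tuft cell genes did not move together. Of 9 that passed the filter out of 19, 2 rose and 3 fell (1 and 3 without WT stem library 1, where Il17rb lost its call). The shares among all genes tested were 37.2% called higher and 36.3% lower. Hpgds and Gng13 passed through 1 group alone, and of the other 7 genes 1 rose and 2 fell, with Dclk1 not called (16.3, 17.7 and 9.23 and 35.9, 16.7 and 20.4, log2 change 0.69 ± 0.36, limma adjusted p = 0.104). Ptgs1, cyclooxygenase-1, which other cells make too, fell from 1458, 362 and 397 to 35.1, 14.3 and 13.6 (log2 change -4.89 ± 0.54). Pou2f3, the tuft cell transcription factor, had at most 11.1 in any WT library. Of 8 Paneth and small intestinal genes that passed the filter 6 rose and 1 fell. Apoa1, Fabp2 and Sis passed through the differentiated libraries alone, and of the other 5 genes 4 rose and 1 fell. Alpi and Fabp2 rose most, and the Paneth cell gene Ang4 rose from 72.4 to 631 (log2 change 3.27 ± 0.50). Lyz1 and Pla2g2a were below the filter, the latter at 0 in all 6 libraries.

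In the Notch pathway, in which a ligand on a secretory cell holds its neighbours absorptive, 7 of 16 members rose and 6 fell (8 and 4 without WT stem library 1), and without Atoh1 6 of 15 rose. Of all genes tested, 37.2% were called higher and 36.3% lower. The ligand genes split, with Dll4 (38.8 to 256, log2 change 3.06 ± 0.55), Dll1 (20.3 to 76.6, log2 change 1.94 ± 0.46) and Jag1 (2247 to 4138, log2 change 0.89 ± 0.12) higher and Jag2 (5641 to 1705, log2 change -1.72 ± 0.11) lower. Among the receptors, Notch4 rose from 27.7, 17.7 and 6.92 to 270.1, 246 and 209 (log2 change 3.90 ± 0.40), Notch1 and Notch3 had log2 changes of -0.47 and -0.59 that lost their calls without WT stem library 1, and Notch2 was called without that library alone (log2 0.35, and 0.51 without it). The effector gene Hes1 rose from 1894 to 3352 (log2 change 0.82 ± 0.07), and Nrarp, a feedback target, fell from 1339 to 907 (log2 change -0.55 ± 0.13). Of 18 Hedgehog and BMP genes 9 rose and 4 fell, against the same 37.2% and 36.3% of all genes tested. Ihh, the Hedgehog ligand that mature colonocytes send to the stroma, had 31, 21.1 and 28.9 and 1908, 1267 and 1874, with no overlap (log2 change 5.91 ± 0.37). Bmp2 rose from 896 to 2383 (log2 change 1.77 ± 0.55, and 0.96 without WT stem library 1), the inhibitor gene Smad7 from 255 to 1350.3 (log2 change 2.40 ± 0.12), and Bmp7 fell from 488 to 50.8 (log2 change -3.25 ± 0.18). The BMP target genes Id1, Id2 and Id3 had log2 changes of -0.11 (not called), -0.57 (call lost without WT stem library 1) and 0.99. Noggin, a BMP inhibitor, was in both media. Receptors of the EGF family rose, Egfr from 4289, 3333 and 3872 to 17270.1, 17216 and 15250.0 (log2 change 2.12 ± 0.11), Erbb2 from 6593 to 23646 (log2 change 1.84 ± 0.10) and Erbb3 from 9050.0 to 30466 (log2 change 1.76 ± 0.11). None of the 12 genes of that list was called lower, and the ligand genes Areg and Ereg were called lower without WT stem library 1 alone (log2 -0.31 and -0.35, and -0.89 and -0.57 without it).

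Transcription factors of intestinal identity rose in the main. Of 33 tested, 26 rose, 14 of them over 2-fold, and 1 fell. Without Creb3l3 and Gata5, which passed the filter through the differentiated libraries alone, 24 of 31 rose. Cdx2 (ENSMUSG00000029646, chromosome 5, 147300805 to 147307270), which sets intestinal fate, had 8396, 12701 and 10600.3 and 18231, 17101 and 17871 (log2 change 0.77 ± 0.16, limma adjusted p = 0.000848), and Hnf4a (ENSMUSG00000017950, chromosome 2, 163506808 to 163572910), a nuclear receptor of enterocyte genes, 14420.4, 16686 and 15603 and 51714, 46441 and 52121 (log2 change 1.69 ± 0.15, limma adjusted p = 1.2e-06). Large rises were seen in nuclear receptors of bile acids, vitamin D and foreign compounds. Nr1i2, the pregnane X receptor, rose from 60.9 to 1508 (log2 change 4.65 ± 0.31), Vdr, the vitamin D receptor, from 239.6 to 2946 (log2 change 3.59 ± 0.34), and Nr1h4, the bile acid receptor FXR, from 279.6 to 1839 (log2 change 2.72 ± 0.30). Creb3l3, a membrane-bound transcription factor gene, had 0, 2.22 and 0 (2 reads) and 327, 165 and 332. Klf4, a factor of differentiated colonocytes, did not pass the test (5235, 10259.9 and 10155 and 7723, 5223 and 8027, log2 change -0.25 ± 0.30, limma adjusted p = 0.468), and Grhl1 fell from 704 to 282 (log2 change -1.29 ± 0.19).

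Metabolism of foreign compounds rose broadly, while AhR pathway and antioxidant genes went both ways. Of 31 xenobiotic genes 22 rose, 20 over 2-fold, and 4 fell (median 3.12). Without Abcc2, Ces2a and Cyp2c65, which passed the filter through the differentiated libraries alone, 19 of 28 rose. The median includes Abcc2, Ces2a and Cyp2c65. The P450 gene Cyp2c55 had 27.7, 9.97 and 43.9 and 7860.0, 4153 and 10392 (log2 change 8.17 ± 0.57), the sulfotransferase gene Sult1d1 rose from 48 to 6479 (log2 change 7.39 ± 0.62), Cyp2c65 from 4.66 to 1302 (log2 change 7.82 ± 0.58), and the efflux pump gene Abcb1a from 878 to 17811 (log2 change 4.33 ± 0.21). The glutathione transferase genes Mgst1 and Gstp1 fell (log2 -1.46 and -0.97). Of 7 AhR pathway genes 2 rose and 3 fell, and without WT stem library 1 another 2, Tiparp and Arnt, were called lower, 5 in all. With all libraries, 37.2% of all genes tested were called higher and 36.3% lower. Cyp1b1 (ENSMUSG00000024087, chromosome 17, 79701537 to 79715061), induced through AhR, went from 8502, 7479 and 8453 to 574, 679.6 and 634 (log2 change -3.69 ± 0.23, limma adjusted p = 7.26e-08), and Aldh3a1, an aldehyde dehydrogenase gene of that pathway, from 908, 549.6 and 533 to 29, 17.9 and 18.2 (log2 change -4.86 ± 0.33). Ahr itself rose a little, from 1762, 1746 and 1909 to 2127, 2236 and 2260.0 (log2 change 0.29 ± 0.08, limma adjusted p = 0.00586), so the receptor gene moved the opposite way to Cyp1b1 and Aldh3a1 and the same way as Ugt1a6a (log2 1.33), a glucuronosyltransferase gene. Cyp1b1 and Aldh3a1 fell in KO organoids as well (log2 -4.53 and -3.50), and neither was called in the interaction of genotype and condition. Among 13 NRF2 antioxidant genes 7 fell and 3 rose, against the same 36.3% and 37.2% of all genes tested. Gpx2, the epithelial glutathione peroxidase, went from 221271, 229685 and 220653 to 31129, 32561 and 27919.7 (log2 change -2.88 ± 0.09), whereas Nfe2l2, which encodes NRF2, rose from 14927 to 21916 (log2 change 0.55 ± 0.08).

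Lipid genes went both ways, in a comparison where 37.2% of all genes tested were called higher and 36.3% lower. Of 33 genes of fatty acid and lipid handling 18 rose and 8 fell, and without the 3 that passed the filter through the differentiated libraries alone, Fabp2 and Pdk4 among them, 15 of 30 rose. Of the lipogenic genes, Scd1, the stearoyl-CoA desaturase, fell from 22365 to 8656 (log2 change -1.36 ± 0.22), and Fasn and Acaca, fatty acid synthase and acetyl-CoA carboxylase, by less (log2 -0.92 and -0.82). Fabp2, the intestinal fatty acid binding protein, had 1.63, 2.22 and 4.62 and 795, 451 and 729 (log2 change 7.47 ± 0.38), and Dgat2, a triglyceride synthase gene, rose from 639.7 to 8055 (log2 change 3.64 ± 0.13). Cpt1a, the gate of mitochondrial fatty acid oxidation, rose from 4147 to 10728 (log2 change 1.37 ± 0.08). Retinoid genes rose in 8 of 12 cases and fell in 0. Cyp26b1, which breaks down retinoic acid, had 26.1, 119 and 114 and 11475, 10552 and 12368 (log2 change 7.31 ± 0.48) and thus rose beside Aldh1a3, which makes it, and Dhrs3, a retinal reductase gene, rose from 484 to 3267 (log2 change 2.79 ± 0.17).

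Glycolysis and hypoxia genes were the group in which WT stem library 1 decided the result. Of 23 members 2 rose and 4 fell with all libraries, and 2 rose and 14 fell without library 1, the median going from -0.15 to -0.58. All 23 were lowest in library 1 among the stem libraries, by a median of 1.01 on the log2 scale. Gapdh had 270312, 469937 and 475843 in the stem and 303941, 292705 and 295378 in the differentiated libraries, and Vegfa, an oxygen-regulated growth factor gene, 3054, 12702 and 12785 and 6887, 7613 and 7720.4. Library 1 lay below the differentiated libraries and the other stem libraries above them for both genes. The summed share was 2.16, 3.64 and 3.66% in the stem and 2.37, 2.3 and 2.39% in the differentiated libraries. Hif1a (log2 change -0.92 ± 0.09, and -0.99 without library 1), Pgam1, Pkm and Eno1 fell and Epas1 and Ankrd37 rose in both fits. The part of the fibroblast transcripts of this library in that shift was not tested.

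**Figure D5:**
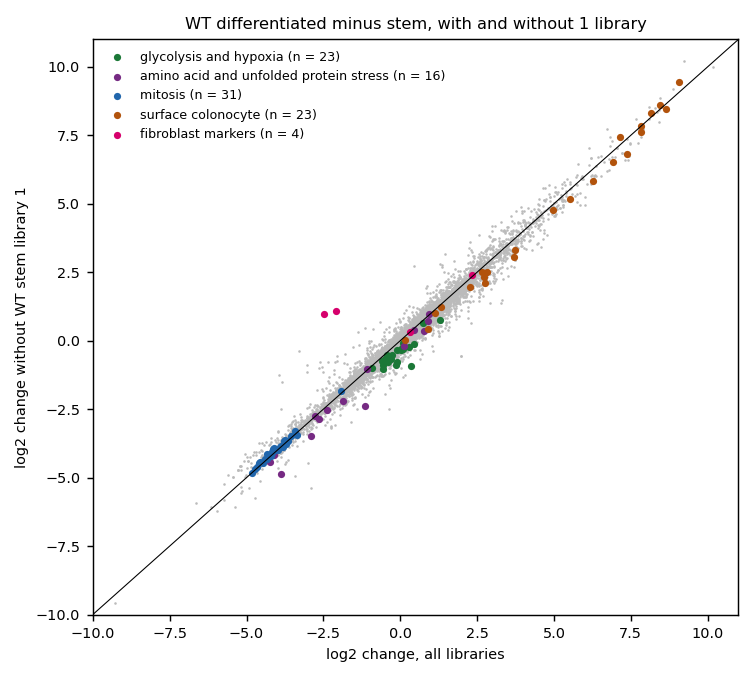
Log2 change of the 14132 genes in the fit of all libraries (x axis) against the fit without WT stem library 1 (y axis), with 5 gene lists in colour and the line of equal values. Most genes lie along the line, the fibroblast markers Vim and Col1a1 change sign, and most glycolysis and amino acid stress genes lie below it.

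Genes of the fetal-like, regenerative and YAP programme, which wounded intestine switches on, rose in 10 of 19 cases and fell in 6. The shares among all genes tested were 37.2% called higher and 36.3% lower. Clu, clusterin, went from 36474, 26220.0 and 18493 to 353488, 399541 and 316177 (log2 change 3.77 ± 0.27), Sprr1a, a cornified envelope precursor gene, from 217, 376 and 545 to 14249.9, 19222 and 15636 (log2 change 5.52 ± 0.29), and Anxa1, annexin A1, rose from 22318 to 59496 (log2 change 1.42 ± 0.11). Ly6a, the surface antigen Sca-1 of this state, fell from 131966 to 92238 (log2 change -0.52 ± 0.08), and the YAP targets Ccn1 and Ccn2 were not called (log2 change -0.28 ± 0.26 and log2 change 0.06 ± 0.18). The list therefore did not move as a whole.

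The largest fall of any gene was that of Pla2g4c (ENSMUSG00000033847, chromosome 7, 13324655 to 13360672), cytosolic phospholipase A2 gamma, from 172025, 377874 and 293752 to 536, 456 and 332 (log2 change -9.27 ± 0.30, limma adjusted p = 5.81e-10). Library 1 was the lowest of its stem libraries, and all 3 lay far above the differentiated ones. Alox15, a lipoxygenase gene of arachidonic acid metabolism, fell from 81.5, 203 and 169.7 to 4.58, 2.39 and 2.27 (log2 change -5.17 ± 0.36). Genes best known from neurons were among the others, with Vsnl1, a calcium sensor (205, 174 and 164 and 3.81, 2.39 and 0, log2 change -6.16 ± 0.50), and Nptx2, neuronal pentraxin 2 (1427, 3031 and 2167 and 16.8, 45.4 and 47.7, log2 change -5.94 ± 0.35). Dnah8, an axonemal dynein gene overlapped by an antisense gene, fell from 569.9 to 9.77 (log2 change -5.72 ± 0.45). Rgcc, a cell cycle regulator gene, had 27.7, 136 and 106 and then 2 reads, and Atp6v1c2, a proton pump subunit gene with an antisense neighbour, 114, 65.4 and 50.8 and then 3 reads.

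The WT response differed from that of KO organoids for 1341 of the 14132 genes (9.49%) by the interaction of genotype and condition, a count that rested on single libraries (370 without WT differentiated library 3 and 1622 without WT stem library 1). Of the 1341 genes, 1192 were called in the WT response itself, in which 73.5% of all genes tested were called. The filter used the WT libraries alone, so genes that passed it through 1 WT group were chosen for a WT change. Both counts include any such genes and are a description. The stem cell genes Ascl2 and Smoc2 fell further in WT. Ascl2 changed by -3.75 in WT and -1.97 in KO, a difference of -1.78, limma adjusted p = 0.0093, and Smoc2 by -2.29 and -0.50 (-1.79, limma adjusted p = 0.0477). For 43 genes the changes were called in both genotypes in opposite directions.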

How the data were processed

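RNA-seq covered 12 libraries, 6 of them WT. The authors deposited normalized counts (a signal made from gene counts) for 48795 Ensembl genes, 22677 at 0 in all 12. The submitters' processing notes name GRCm38, Bowtie2, RSEM 1.2.11 and DESeq2 1.18.1. The annotation, filters and strand use are not given in the sources used here. In the deposited values 100% were whole multiples of 1 step per library (within 0.05 of a read), so reads were recovered, 25.1 to 99.0 M per library. Symbols came from GENCODE vM21, which matched 99.3% of identifiers.

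Genes with at least 10 in at least 3 WT libraries were tested on log2(normalized count + 1) with limma 3.58.1 in R 4.3.3 (mean-variance trend, 4 group means over 12 libraries, two-sided, Benjamini-Hochberg over 14132 genes, called under 0.05). The edgeR 4.0.16 quasi-likelihood test on the recovered reads called 10324 genes. The fit was tested on simulated data.

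Groups came from the sample titles. The members, the gene lists, the named genes and the motifs were chosen with earlier results of these data known. Named were the 12 largest rises and 12 largest falls of called protein-coding genes (a mean of at least 50 in a WT group, no overlap, the same call without WT stem library 1, no predicted genes), a panel of 25 genes, up to 4 called members per list, genes with no read in a WT group and a mean of at least 50 in the other, and the 3 largest interaction effects each way. Some genes that this rule names are not reported here. List members named beyond this were chosen after their values were seen. Where a WT group had no reads, 3 reads per library were the floor. Setting genes without reads in 1 group to their bound left each list's median as it was. Alternatives were pseudocounts of 0.5 and 5, other filters, scalings, tools and library sets, and leaving out each library.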

Additional observations from a re-analysis of the deposited data

Results flagged for a closer look

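Among the largest changes, the panel and the largest interaction effects, 8 genes were set apart because the WT and KO responses differed by the test of the interaction itself (limma, adjusted p under 0.05, difference of log2 changes as WT minus KO). The stem cell and Wnt genes Ascl2, Smoc2 and Axin2 fell further in WT, Smoc2 and Axin2 with adjusted p-values close to that limit. The interaction count itself rested on single libraries (1341 with all and 370 without WT differentiated library 3). The difference was -1.78, limma adjusted p = 0.0093 for Ascl2 (means 975 to 71.2 in WT and 591 to 151 in KO), -1.79, limma adjusted p = 0.0477 for Smoc2 (319 to 62.7 and 388 to 276) and -0.69, limma adjusted p = 0.0452 for Axin2 (6779 to 2105 and 6775 to 3449.5). For the mitotic regulator gene Pimreg it was -1.32, limma adjusted p = 0.0187 (1473 to 44.8 and 1432 to 109.5). Clca3b, a chloride channel accessory gene, rose less in WT, with a difference of -1.88, limma adjusted p = 0.0112 (9709 to 24133 and 1172 to 10701). Fabp2, Ces1d and Ptpn5 rose by more in WT, and Ptpn5 was not called in KO. The filter used the WT libraries alone, and Fabp2 and Ces1d passed it only through the WT differentiated libraries, a choice that favours this direction, so their p-values are no support for it. Fabp2 had 3.62, limma adjusted p = 0.00983 (2.82 to 659 and 4.44 to 82.6), Ces1d, a carboxylesterase gene with 2 reads in the WT stem libraries, 3.60, limma adjusted p = 0.0236 (0.754 to 138 and 0.519 to 10.1), and Ptpn5, a tyrosine phosphatase gene, 4.21, limma adjusted p = 0.0285 (11.9 to 276 and 34.6 to 58.7).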

How the results depend on the processing

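The count of 10380 called genes lay between 9229 and 11250 over the other tools, scalings, filters and pseudocounts, between 9779 and 10466 with 1 WT library left out, and was 10772 with the WT libraries alone and without WT stem library 1, an alternative chosen after seeing the data. The added limit of 2-fold gave 4458. DESeq2 called 10366 genes. With 1 library left out the interaction count lay between 370 and 1622, and besides the libraries named above it fell to 558 without WT differentiated library 1, 459 and 553 without KO stem libraries 1 and 2, and to 791 to 877 without WT differentiated library 2, KO stem library 3 or KO differentiated library 2. Same-numbered WT libraries deviated from their group means with correlations of 0.097, 0.045 and 0.157, and differently numbered ones with -0.107 to 0.026. The same-numbered values were thus small but the higher ones, and whether the numbers pair the libraries is not labelled. The main fit did not pair them, and a replicate block gave 10559 calls and 1397 for the interaction. Of 195 named genes 7 changed call or sign in some setting. Col1a1 and Vim, not called by limma and called lower by edgeR, reversed without WT stem library 1 to 1.07 and 0.96, with or without the KO libraries in the fit, and with 1 library left out the Col1a1 log2 change lay between -3.68 and 1.07 and the Vim log2 change between -4.29 and 0.96. The stem libraries varied more with library 1 (median SD of log2 values 0.17) than without it (0.0625).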

Other observations

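Defence genes rose in part. Of 16 epithelial defence genes 11 rose and 3 fell, and without Cxcl1, Saa3 and Reg3g, which passed the filter through 1 group alone, 9 of 13 rose and 2 fell. Il18, an epithelial cytokine gene, went from 153, 104 and 105 to 2261, 1842 and 1944 (log2 change 4.07 ± 0.18), the chemokine gene Ccl20 from 19.6, 5.54 and 4.62 to 106, 104 and 90.9 (log2 change 3.47 ± 0.46), and Duox2, an oxidase of the apical membrane, rose from 2326 to 8386 (log2 change 2.17 ± 0.53). Pigr, which carries IgA across the epithelium, rose from 5607 to 18710.4 (log2 change 1.84 ± 0.31). The lectin gene Reg3g and the collectin gene Sftpd fell from 13.4 to 2.17 and 121 to 26.6 (log2 -2.22 and -2.14). Of 28 interferon response genes 9 rose and 6 fell, against 37.2% called higher and 36.3% lower among all genes tested. Ifit2 (119.8 to 928, log2 change 2.89 ± 0.34), Ifit1 (1152 to 4605, log2 change 2.01 ± 0.27) and Irf1 (3002 to 9727, log2 change 1.70 ± 0.07) rose, and Bst2, tetherin, fell from 10452, 8355 and 8354 to 1662, 1682 and 1490.0 (log2 change -2.48 ± 0.12), so this list did not move one way. Of 9 antigen presentation genes 3 rose and 2 fell, against the same 37.2% and 36.3% of all genes tested (2 and 4 without WT stem library 1). H2-Ab1, not called (4.89, 109 and 87.7 and 9.92, 11.9 and 13.6, log2 change -1.60 ± 0.89), was called lower without WT stem library 1.

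Cholesterol genes fell by small amounts, 12 of 23 lower and 4 higher (median -0.33). Of those that were higher, Hmgcs1 and Insig1 rose (13270.5 to 27998 and 5882 to 10416, log2 1.07 and 0.82). Among 13 immediate early and heat shock genes 4 rose and 3 fell (6 and 4 without WT stem library 1), against 37.2% called higher and 36.3% lower among all genes tested. Jun had 1174, 1746 and 1418 and then 5562, 4485 and 4713 (log2 change 1.78 ± 0.17), Fos and Junb were higher (log2 1.03 and 1.08) and Egr1 was lower (9130.4 to 3674, log2 change -1.31 ± 0.09). Of 12 immune markers Cd3e, Cd3d, Cd4 and Tyrobp had no reads in any WT library and Ptprc at most 5.97, while Cd68 (1617, 3301 and 3184 and 566, 739 and 672) and Csf1r (86.4, 74.2 and 60.0 and 375, 423 and 323) were present and moved in opposite directions. Long intergenic noncoding RNA genes passed the call with a change over 2-fold in 38.7% of 269 cases and protein-coding genes in 30.9% of 12774. This was not particular to that class. The share was 41.3% of 213 antisense genes, 39.3% of 173 processed transcripts and 36.2% of 246 processed pseudogenes. It was 26.1% of 46 unprocessed and 28.6% of 42 transcribed processed pseudogenes. The classes were not matched for level.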
